A study of Mus musculus with 22 samples.

Results

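Skipped exons of 250 nucleotides or more were examined across 7 pooled RNA-seq libraries of mouse embryonic stem (ES) cells. They were chosen by length alone, as the end minus the start plus 1 of the middle exon of each deposited event. The rule uses neither inclusion nor any comparison, but it was set with earlier results of these data known. The rule took 733 of 10873 events (6.74%). These 733 events hold 678 distinct exons in 559 genes, with 34 events in no annotated gene and 8 in several. The study asked how the loss of DNA methylation and of heterochromatin protein 1 (HP1) affects alternative splicing.

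TKO cells lack the DNA methyltransferases Dnmt1, Dnmt3a and Dnmt3b. WT cells are R1 ES cells. TKO and WT were also transfected with siRNAs against HP1alpha (gene Cbx5), HP1beta (Cbx1) and HP1gamma (Cbx3) together, here the triple knock-down, at 80, 80 and 120 nM in TKO and 60 nM each in WT. WT cells further received each siRNA singly at 90 nM. All were mouse ES cells grown without feeder cells, on gelatin and in the presence of leukaemia inhibitory factor, and knock-down RNA was taken 48 h after transfection. The TKO and WT libraries were untransfected and read as 50-base single-end reads, whereas the 5 knock-down libraries were transfected and read as 101-base paired-end reads. A knock-down therefore cannot be told apart from platform and transfection when it is set against TKO or WT, and only libraries of the same platform were tested against each other. No library with a control siRNA was used here. The 2 replicates of each group had been pooled into 1 file by the authors, so every test below compares pooled libraries and has no replicate error. TKO and WT are different cell lines, and any other difference between them cannot be told apart from the loss of methylation.

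A skipped exon is joined to both neighbours in one isoform and left out of the other. Most mammalian internal exons are short, and their splice sites are thought to be recognised in pairs across the exon, which is harder over a long one. An exon whose length is a multiple of 3 can be skipped without shifting the reading frame, and other lengths shift it. Several genes of SR proteins, which bind exonic enhancers and promote splicing, carry long cassette exons with early stop codons, often called poison exons, whose inclusion lowers the amount of protein made. HP1 proteins bind methylated histone H3, and DNA methylation in gene bodies has been linked to exon recognition.

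The long exons ranged from 250 to 9955 nucleotides, with a median of 381 and quartiles of 287 and 723. Of the 733 events, 264 held an exon of 500 nucleotides or more and 122 one of 1000 or more. Coordinates are those of the deposited events on mm10. The longest exon lay in Meg3 (chr12:109558640-109568594), a maternally expressed long noncoding RNA, followed by Map1a (8104 nucleotides), which encodes a microtubule-associated protein, Son (5970), an SR-related splicing protein, and Naca (5916), a subunit of the nascent polypeptide-associated complex. Lengths were a multiple of 3 in 331 events, or 45.2% (95% Clopper-Pearson interval 41.5 to 48.8), against 46.7% of the 10140 shorter events (45.7 to 47.7). The intervals overlap. These intervals cover counting error only. The flanking introns had medians of 2894 nucleotides upstream and 2261 downstream, against 1952 and 1936 for shorter exons. The neighbouring exons had medians of 153 and 152 nucleotides, against 126 and 135. Of 567 gene labels, which here include joint labels of overlapping genes such as Prn/Prnp, 498 had 1 long exon and 59 had 2. The other 10 had 3 or more, among them Wnk1, Phf21a, Zmym3 and Smox.

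Annotated transcription starts lay inside 14 of the 733 long events (1.91%) and inside 30 of the 10140 shorter ones (0.296%), so that part of the reads from such an exon may come from transcripts that begin in it. A longer exon has more positions that can hold a start, and this was not adjusted for. The genes of these starts were Fbxl12, Ggnbp1, Gnas, Hnrnpl, Lime1, Mmd, Naa80, Oprm1, Pramel7, Rbm4, Tmem258, Wdr4 and Xiap. The windows of 250 bases before the start are shown for 3 of them, because they lie wholly inside the skipped exon and differ in the number of CG, the dinucleotide that Dnmt enzymes methylate. The capitals mark each CG, which reads the same on both strands. The sequences are from RefSeq on GRCm38.p6, 5′ to 3′ on the gene's strand: Gnas at chr2:174329756-174330005 (plus strand), Fbxl12 at chr9:20642807-20643056 (minus strand) and Ggnbp1 at chr17:27029009-27029258 (plus strand).
Gnas: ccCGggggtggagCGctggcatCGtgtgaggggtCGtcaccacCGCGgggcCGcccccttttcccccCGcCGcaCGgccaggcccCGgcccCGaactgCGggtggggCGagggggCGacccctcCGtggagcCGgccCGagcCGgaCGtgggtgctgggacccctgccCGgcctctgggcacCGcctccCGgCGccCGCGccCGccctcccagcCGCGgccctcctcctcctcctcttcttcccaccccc
Fbxl12: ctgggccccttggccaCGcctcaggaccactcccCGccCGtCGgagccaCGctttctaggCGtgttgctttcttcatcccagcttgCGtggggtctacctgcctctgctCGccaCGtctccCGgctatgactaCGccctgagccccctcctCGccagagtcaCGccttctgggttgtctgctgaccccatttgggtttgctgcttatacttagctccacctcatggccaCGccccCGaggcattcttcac
Ggnbp1: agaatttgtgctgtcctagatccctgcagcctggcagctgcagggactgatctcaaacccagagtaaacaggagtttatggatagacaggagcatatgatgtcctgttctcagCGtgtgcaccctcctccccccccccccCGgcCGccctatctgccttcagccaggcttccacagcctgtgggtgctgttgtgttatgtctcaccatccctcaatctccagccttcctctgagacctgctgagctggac
The Gnas window, at an imprinted locus that encodes the stimulatory G protein alpha subunit, held 29 CG, the Fbxl12 window held 15 and the Ggnbp1 window held 3. Over all 32851 start windows of the same length the median was 6 CG, and 92.1% held at least 1. The Gnas exon of 2327 nucleotides had an inclusion level of 0.88 in TKO and 0.88 in WT, from 2034 inclusion and 23 skipping reads in TKO and 1876 and 18 in WT. The Fbxl12 exon of 2095 nucleotides had 0.86 in TKO and 0.86 in WT, with no skipping read in either library. The Ggnbp1 exon of 1114 nucleotides had 0.87 in TKO and 0.81 in WT, also with none. No exon of these 3 was called between TKO and WT by the rule used below. With no skipping read in either library, the Fbxl12 and Ggnbp1 exons could not be called by it.

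The inclusion level is the deposited estimate of the proportion of transcripts that hold the exon (0 to 1). Reads that fit only 1 of the 2 isoforms are called distinguishing reads here, and they are of the inclusion or the skipping class. The 7 libraries held 25200437 event reads in TKO, 25941844 in WT and 4677236 to 9750348 in the knock-downs, with at least 100 reads at every listed event. Long exons took 8.87% to 10.1% of them. The targeted genes were lower where labelled as such, by reads of a single event each: Dnmt3a at 0.45 and Dnmt3b at 0.157 of WT in TKO, and Cbx5, Cbx1 and Cbx3 at 0.399, 0.324 and 0.634 of the other single knock-downs in their own knock-down. In the triple knock-downs the same 3 genes stood at 0.468, 0.641 and 0.691 in TKO and at 0.522, 0.352 and 0.71 in WT, each relative to the single knock-downs of other HP1 genes. No Dnmt1 event was listed. Of 14 ES cell markers 5 or 6 had a listed event in every library, among them Klf4, Sall4 and Zfp42. Of 14 markers of differentiated cells or fibroblasts, Fn1 was listed in every library, Sox17 in TKO and in the TKO triple knock-down, and the other 12 had no listed event.

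By deposited level, long exons were mostly included in untransfected cells. The median level over listed long events was 0.90 in TKO (720 events) and 0.90 in WT (691), against 0.68 and 0.66 for shorter exons in the same libraries. In the knock-downs the median for long exons was 0.72 in the TKO triple knock-down, 0.77 in the WT triple knock-down, 0.745 with HP1alpha, 0.74 with HP1beta and 0.71 with HP1gamma knock-down, and shorter exons had 0.63 to 0.65. The share of long events at a level of 0.9 or more was 50.3% in TKO and 51.2% in WT and 27.6% to 31.3% in the knock-downs. Long events also had more distinguishing reads, a median of 248.5 in TKO and 227 in WT against 95 and 91 for shorter exons.

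The gap between long and shorter exons was smaller among well-covered events. With 20 distinguishing reads in the library itself, the medians were 0.95 for long and 0.88 for shorter exons in TKO, and 0.95 and 0.86 in WT. Being listed in all 7 libraries, with no read minimum, gave 0.96 and 0.83 in TKO and 0.95 and 0.79 in WT. The number of distinguishing reads itself rises with inclusion and exon length, so depth alone was not isolated. Among events with at least 20 distinguishing reads in every library, 407 long and 3906 shorter, the medians were 0.98 and 0.94 in TKO and 0.97 and 0.92 in WT. In the knock-downs the order turned round, with 0.80 to 0.84 for long and 0.84 to 0.87 for shorter exons. Every knock-down lay below both TKO and WT in 295 of the 407 long events (72.5%) and in 1904 of the 3906 shorter ones (48.7%). All of the knock-downs were of the other platform, so these counts are given as a description, were not tested and cannot be told apart from platform. Exons of 800 nucleotides or more had medians of 0.99 in TKO and in WT and 0.74 to 0.825 in the knock-downs.

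**Figure D1:**
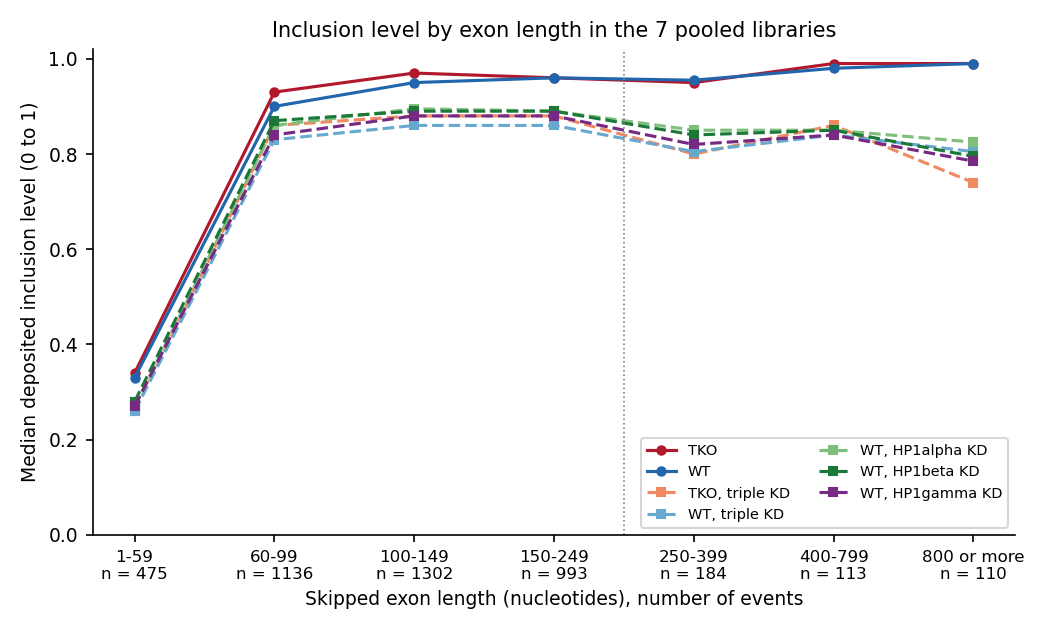
Median deposited inclusion level (0 to 1, vertical axis) of events with at least 20 distinguishing reads in all 7 libraries, by skipped exon length in nucleotides (horizontal axis), 1 line per pooled library. The dotted line marks 250 nucleotides. TKO and WT stay at 0.95 or above at every length from 100 nucleotides on. From 250 nucleotides on, the 5 knock-down libraries of the other platform lie between 0.74 and 0.86.

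The deposited level itself moved with exon length on one platform. A level was computed from the distinguishing reads alone, per position at which such a read can start. It was set beside the deposited level only for events with at least 50 distinguishing reads and at least 5 of each class. This left out events without a skipping read, 473 of the 720 long ones in TKO and 429 of 691 in WT. Their level from reads cannot lie below the deposited one. Among the events kept, the level from reads was mostly lower than the deposited level in the single-end libraries. The median gap was 0.042 in TKO and 0.048 in WT from 250 to under 400 nucleotides. It was 0.078 and 0.082 from 400 to under 800, and 0.121 and 0.127 at 800 or more. These bands held 82, 36 and 36 events in TKO and 74, 42 and 40 in WT. In the length bands under 250 nucleotides the median gap in TKO and WT was 0.014 to 0.035. The contrast of long with shorter exons above was not adjusted for this. In the paired-end libraries the gap was slightly negative, -0.006 to -0.057, in all length bands from 250 nucleotides on. Tests and differences below are therefore within a platform. Where levels of both platforms are given for an exon, they stand side by side as values, and no difference between platforms is read from them.

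A few long exons stayed at a middle deposited level throughout. Of 381 distinct exons with 20 distinguishing reads in all libraries, 86 had a level of 0.9 or more in every library, 28 had 0.1 or less in every library, and 15 lay between 0.2 and 0.8 in every library. The exon with the most reads of the 15 was that of Nop56 (283 nucleotides), a core protein of box C/D small nucleolar ribonucleoproteins. Its levels were 0.59 in TKO, 0.58 in WT, 0.78 in the TKO triple knock-down, 0.77 in the WT triple knock-down, and 0.74, 0.76 and 0.74 with HP1alpha, HP1beta and HP1gamma knock-down. Skipping was hardly seen in its untransfected distinguishing reads, with 1530 inclusion and 2 skipping reads in TKO and 1400 and 0 in WT. A further 3374 reads in TKO and 3177 in WT fitted both isoforms. Another deposited event with the same Nop56 exon and other neighbours had 0.26 in TKO and 0.25 in WT. An exon's level thus depended on the neighbours of the event. Over the 39 long exons that TKO listed in several events the median range of level was 0.02 and the largest 0.51, and 9 ranged over 0.1 or more.

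Other exons at a middle level were those of Brd2, a bromodomain protein that binds acetylated histones (301 nucleotides, 0.46 in TKO and 0.49 in WT, 0.64 to 0.70 in the knock-downs), Jmjd6, a jumonji-domain hydroxylase of splicing factors (708 nucleotides, 0.69 in TKO and 0.70 in WT, 0.33 to 0.43 in the knock-downs), and Rab11fip1, a Rab11 effector in recycling endosomes (1563 nucleotides, 0.75 in TKO and 0.75 in WT, 0.63 to 0.77 in the knock-downs). The Ctnnd1 exon of 289 nucleotides, in the gene of the cadherin-binding p120 catenin, had 0.74 in TKO and 0.69 in WT and 0.24 to 0.36 in the knock-downs. Within each platform the levels of Brd2 and Jmjd6 were at most 0.1 apart. Their middle levels in TKO and WT did not come from skipping reads. Brd2 had 873 inclusion and 0 skipping reads in TKO and 804 and 0 in WT. Jmjd6 had 869 and 0 in TKO and 782 and 1 in WT. Rab11fip1 had 1689 and 63 in TKO and 882 and 45 in WT, and Ctnnd1 had 726 and 102 in TKO and 891 and 227 in WT.

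The 28 exons at 0.1 or less in every library had a median length of 316 nucleotides, against 422 for all 381. Of the 28, 22 (78.6%) were under 500 nucleotides, against 59.8% of all, and 5 (17.9%) had 1000 or more, against 21.5%. No test was made of these shares. The 10 with the lowest median level included those of Wrnip1 (263 nucleotides), an ATPase in replication fork protection, Zfp277 (378), Swi5 (284), a recombination factor, Ptpn1 (460), a tyrosine phosphatase, and Cdc16 (258), a subunit of the anaphase-promoting complex. Each had a level of at most 0.06 in TKO and in WT and at most 0.01 in the knock-downs. The Wrnip1 exon had 6 inclusion and 133 skipping reads in TKO and 4 and 131 in WT. The 5 long ones lay in Rtn3, Map4, Hnrnpc and, as a pair of overlapping exons, Eef1d. Rtn3 (2124 nucleotides), a reticulon of the endoplasmic reticulum, had 0.06 in TKO and 0.04 in WT, or 0.12 and 0.10 in a second event with the same exon, and Map4 (3180), a microtubule-associated protein, had 0.05 in TKO and 0.05 in WT.

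The 8 longest exons with 20 distinguishing reads in all libraries differed widely among themselves, and 6 of them stood at 0.97 or more in TKO and in WT. Son had 1.0 in both and 0.97 to 0.99 in the knock-downs. Vcan (5217 nucleotides), which encodes the matrix proteoglycan versican, had a level of 1.0 in TKO and in WT and 0.97 to 1.0 in the knock-downs, with no skipping read in any library. A second deposited event with the same Vcan exon and another upstream neighbour had 0.99 in TKO, 1.0 in WT, 0.69 in the TKO triple knock-down, 0.91 in the WT triple knock-down and 0.90 to 0.93 in the single knock-downs. Map1a and Rai1 (5527 nucleotides) had 0.99 or 1.0 in TKO and WT, with 0.67 to 0.90 and 0.56 to 0.83 in the knock-downs. Zfp407 (4720 nucleotides), a zinc finger gene, had 1.0 in TKO and in WT and 0.62 to 0.78 in the knock-downs, and Tacc2 (5121), of a family of centrosomal coiled-coil proteins, had 0.97 in both and 0.42 to 0.70. The other two were low. Meg3 had a deposited level of 0.45 in TKO and 0.39 in WT, and 0.01 in the TKO triple knock-down, 0.02 in the WT triple knock-down and 0.02 to 0.03 in the single knock-downs. Its reads were 2967 inclusion and 776 skipping in TKO, 2309 and 704 in WT, and 1760 and 1464 in the TKO triple knock-down. Inclusion reads can fall anywhere on its 9955 nucleotides. Among events with enough reads of both classes, deposited single-end levels mostly ran above those from distinguishing reads at such lengths. No fall in inclusion is read from these values. Naca had 0.04 in TKO, from 511 inclusion and 1378 skipping reads, and 0.03 in WT, from 515 and 1921. In the knock-downs Naca had only 1 to 9 skipping reads beside 200 to 559 inclusion reads, and its levels were 0.03 to 0.42.

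TKO was first compared with WT. Of the long exons, 19 differed by the rule given next, and most others differed little in level. An exon was called when the distinguishing reads differed at an adjusted p of at most 0.05 (two-sided Fisher's exact test, Benjamini-Hochberg adjustment over all 7695 exons tested, each with 20 or more distinguishing reads in both libraries) and the deposited level differed by at least 0.1. Of the 587 long events tested, in 547 distinct exons, 10 were higher in TKO (1.7%; 3.18% of all exons tested) and 9 were lower (1.53%; 1.39% of all), 3.24% in either direction against 4.57% of all. Neither library had a skipping read in 314 of the 587 long events (53.5%), against 40.7% of shorter ones. The read test cannot call such an event, and the shares called were not adjusted for this. The median absolute difference in level was 0.02 for long exons and 0.02 for all exons. The deposited intervals of TKO and WT did not overlap in 16 of the 19, and 11 of the 19 exons kept the frame. With the level computed from distinguishing reads alone, all 19 kept their direction and 16 their call. The difference was then over 1.5 times larger for 12 of the 19, and over 1.5 times smaller for Llgl2, Ndufv3 and Prrc2b, which lost their call. When the odds ratio taken as no change was the median of exons of like length, 9 long exons were higher and 11 lower and over all exons 196 were higher and 137 lower, against 245 and 107 with an odds ratio of 1.

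The 10 exons higher in TKO lay in 10 genes. Pstk, the kinase of seryl-tRNA in selenocysteine synthesis (295 nucleotides, chr7:131373536-131373830), had 399 inclusion and 13 skipping reads in TKO, against 266 and 33 in WT, and its level was 0.91 (deposited interval 0.87 to 0.95) in TKO, against 0.69 (0.63 to 0.75) in WT (adjusted exact p = 8.81e-04). Llgl2, a cell polarity gene of the lethal giant larvae family (257 nucleotides, chr11:115832662-115832918), had 287 and 182 reads in TKO, against 204 and 280 in WT, with levels of 0.50 (0.46 to 0.54) and 0.30 (0.26 to 0.33) (adjusted exact p = 2.89e-07). In both genes the read classes and the level moved the same way, and the intervals of TKO and WT were apart. From distinguishing reads alone, Llgl2 had 0.20 in TKO and 0.10 in WT, a difference under the bound of 0.1, and Pstk had 0.81 in TKO and 0.53 in WT.

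Wnk1, a kinase that regulates chloride cotransporters (462 nucleotides, chr6:119953771-119954232), had a level of 0.63 in TKO and 0.49 in WT. Aire, a transcriptional regulator best known from thymic epithelium (1248 nucleotides, chr10:78034586-78035833), had 0.96 in TKO and 0.82 in WT, with 1462 inclusion and 10 skipping reads in TKO against 1546 and 67 in WT. Clcn3, a chloride/proton exchanger (251 nucleotides), had 0.37 in TKO and 0.24 in WT, and Ccdc88c, a Dishevelled-binding protein of Wnt signalling (439 nucleotides), had 0.33 in TKO and 0.21 in WT. These 4 also had intervals apart. The other 4 had no skipping read in TKO: Ckmt1, a mitochondrial creatine kinase (477 reads and 0 in TKO, 618 and 22 in WT), Fam126a (306 and 0 in TKO, 186 and 10 in WT), Krba1 (638 and 0 in TKO, 340 and 6 in WT) and Zfp142, a zinc finger gene (183 and 0 in TKO, 148 and 7 in WT). The deposited intervals of Zfp142 overlapped, 0.79 to 0.98 in TKO and 0.67 to 0.85 in WT (adjusted exact p = 0.0454). Zfp142 lost its call with the odds ratio of exons of like length (adjusted exact p = 0.132).

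The exons lower in TKO included 2 strongly covered exons of over 1000 nucleotides. Ndufv3, an accessory subunit of mitochondrial complex I (1092 nucleotides, chr17:31527310-31528401), had 758 inclusion and 836 skipping reads in TKO, against 1614 and 864 in WT, and a level of 0.22 (0.21 to 0.24) in TKO and 0.39 (0.37 to 0.40) in WT (adjusted exact p = 7.00e-26). Prrc2b, a proline-rich RNA-associated protein (2061 nucleotides, chr2:32212887-32214947), had 358 and 171 reads in TKO, against 876 and 171 in WT, and a level of 0.21 (0.19 to 0.23) in TKO and 0.38 (0.36 to 0.40) in WT (adjusted exact p = 1.27e-10). Skipping reads were close to equal in TKO and WT for both genes, and inclusion reads were lower in TKO. The size of the level difference rests on the deposited estimate. From distinguishing reads alone Ndufv3 had 0.04 in TKO and 0.07 in WT, and Prrc2b had 0.05 in TKO and 0.11 in WT, so that neither difference reached 0.1.

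Mapt, which encodes the microtubule-associated protein tau, was called through 2 overlapping events of 711 and 759 nucleotides that share most of their reads and count as 1 locus. The 711-nucleotide exon (chr11:104298546-104299256) had 87 inclusion and 37 skipping reads in TKO, against 121 and 8 in WT, with levels of 0.62 in TKO and 0.90 in WT. Ggcx, the gamma-glutamyl carboxylase of vitamin K-dependent proteins (250 nucleotides, chr6:72419017-72419266), showed the largest difference of the 19, 0.56 in TKO and 0.88 in WT, from 70 and 25 reads in TKO and 45 and 0 in WT. The remaining 4 were Accsl (0.80 in TKO, 0.95 in WT), Ceacam1, a cell adhesion molecule (0.75 in TKO, 0.89 in WT), Ccdc136 (0.86 in TKO, 0.98 in WT) and Arid4b, a chromatin protein (0.82 in TKO, 0.92 in WT). Of these 4, all but Accsl had no skipping read in WT. The deposited intervals of TKO and WT overlapped for Ceacam1 and Arid4b.

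**Figure D2:**
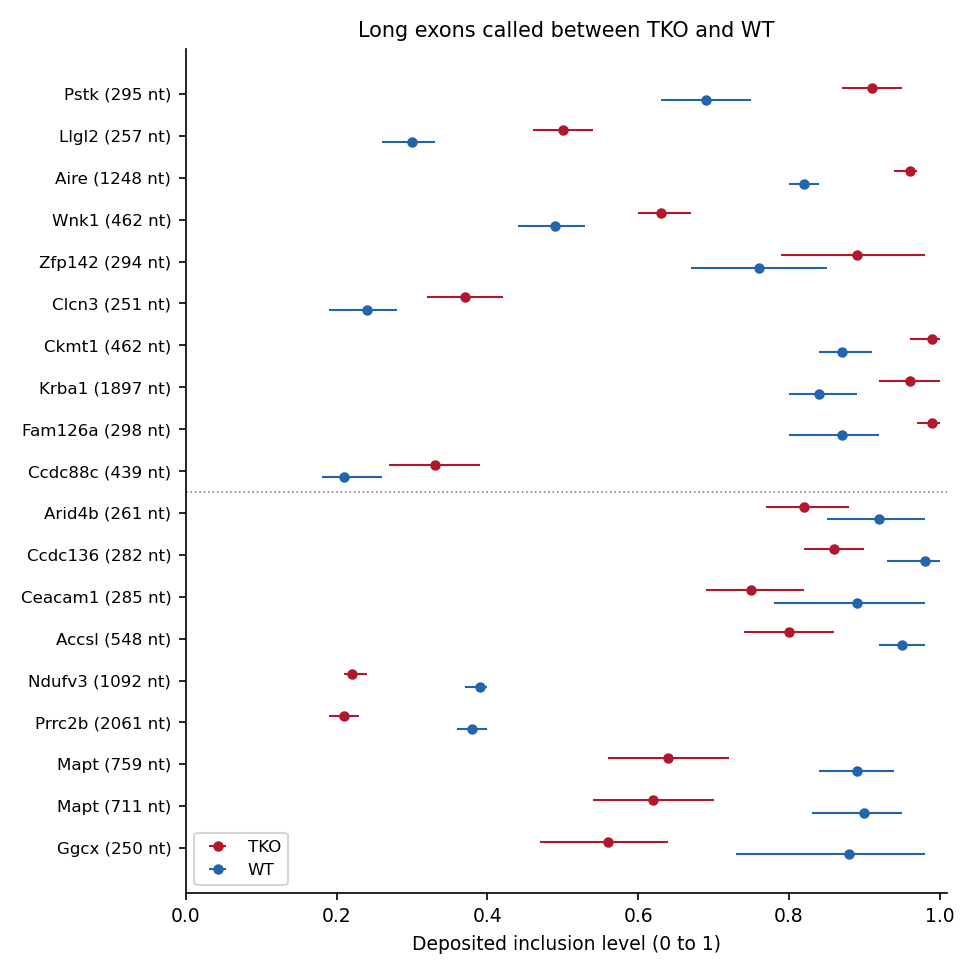
Deposited inclusion level (0 to 1, horizontal axis) of the 19 long events called between TKO (red, upper point of each pair) and WT (blue, lower point), with bars for the deposited interval. The 10 events above the dotted line are higher in TKO and the 9 below it are lower, and 16 of the 19 pairs of intervals do not overlap.

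More long exons differed in deposited level than in distinguishing reads. A level difference of 0.1 or more was found in 89 of the 587 long events tested, or 15.2%, the same share as in shorter exons (15.2%). Of these, 70 missed the read test, 38 higher and 32 lower in TKO, and 31 of the 70 had no skipping read in either library. One with no skipping read in any of the libraries compared was Tra2b, an SR-related splicing activator, whose exon of 276 nucleotides (chr16:22258986-22259261) had a level of 0.67 (0.65 to 0.70) in TKO and 0.32 (0.30 to 0.34) in WT. Its reads were 1962 inclusion and 0 skipping in TKO and 1146 and 0 in WT, while 3847 reads in TKO and 6015 in WT fitted both isoforms. The level of Tra2b thus differed through reads that the test does not use, and no p is given for it. In the triple knock-downs Tra2b had 0.17 (0.14 to 0.19) in TKO and 0.09 (0.08 to 0.11) in WT, again with 0 skipping reads in both.

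The exons of Prn/Prnp and Wiz also differed in level but not by the read test. The exon of Prn/Prnp (1541 nucleotides, chr2:131918028-131919568, in the span of both the prion protein gene Prnp and the overlapping annotation Prn) had a level of 0.97 in TKO and 0.46 in WT, from 1156 inclusion and 22 skipping reads in TKO and 180 and 7 in WT (adjusted exact p = 0.517). An exon of Wiz, a zinc finger partner of the histone methyltransferases G9a and GLP (390 nucleotides), had 0.52 in TKO and 0.85 in WT, from 251 and 14 reads in TKO and 473 and 9 in WT (adjusted exact p = 0.119). For Wiz the triple knock-downs had 0.61 in TKO and 0.52 in WT.

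**Figure D3:**
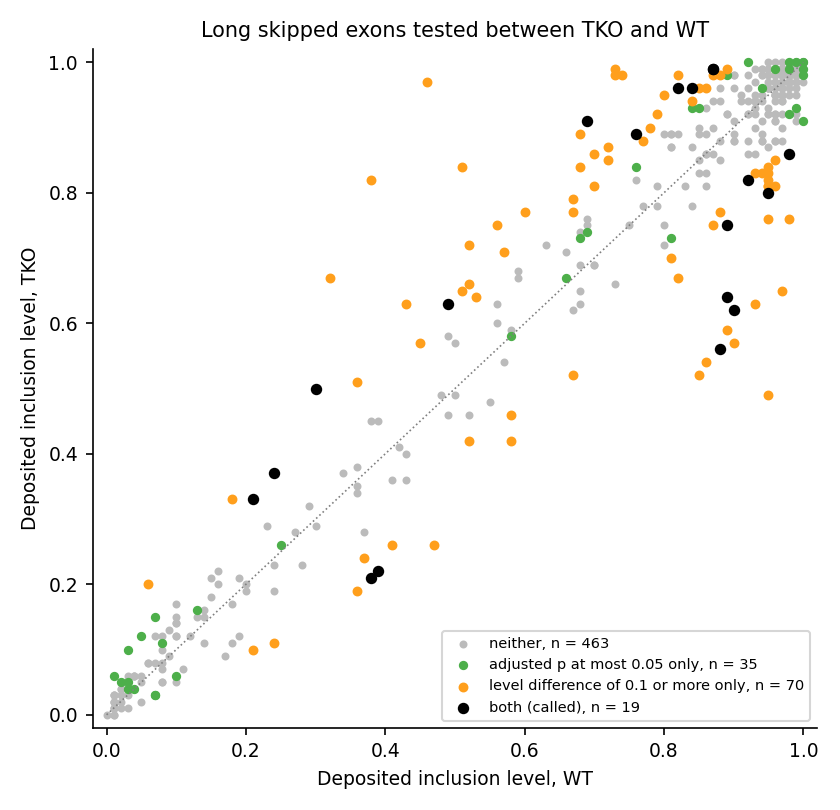
Deposited inclusion level in TKO (vertical axis) against WT (horizontal axis) for the 587 long events tested, 1 point per event. Black points passed both the read test and the level difference (19), orange points had a level difference of 0.1 or more without passing the read test (70), green points passed the read test with a smaller level difference (35), and grey points did neither.

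The read test alone was passed by 54 long events (9.2%), against 8.94% of all exons, 36 with higher and 18 with lower odds of inclusion in TKO. Among those with a small level difference was Fn1, which encodes the matrix protein fibronectin (273 nucleotides, chr1:71613763-71614035), with a level of 0.93 in TKO and 0.84 in WT, from 3230 inclusion and 92 skipping reads in TKO and 2541 and 133 in WT (adjusted exact p = 2.89e-04). The Eef1d exon of 1140 nucleotides, in the gene of a translation elongation factor subunit, had 0.03 in TKO and 0.07 in WT, from 98 and 375 reads in TKO and 209 and 272 in WT.

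The same pair of cell lines was compared under the triple HP1 knock-down. Of 414 long events tested, 3 were called higher in TKO (0.725%) and 0 lower, and over all 4473 exons 21 were called (0.469%; 0.246% higher). Depdc1a, a mitotic regulator (831 nucleotides, chr3:159522526-159523356), had 122 inclusion and 2 skipping reads in the TKO triple knock-down, against 74 and 14 in the WT triple knock-down, with levels of 0.73 (0.52 to 0.90) and 0.22 (0.14 to 0.32) (adjusted exact p = 0.0202). Untransfected TKO had 1.0 and untransfected WT 0.99 for this exon. The single knock-downs in WT had 0.40, 0.27 and 0.47 for HP1alpha, HP1beta and HP1gamma, so the TKO triple knock-down was the highest of the 5 transfected libraries.

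The Fn1 exon had 607 and 78 reads in the TKO triple knock-down, against 476 and 127 in the WT triple knock-down, and levels of 0.65 (0.60 to 0.70) and 0.48 (0.43 to 0.53) (adjusted exact p = 7.87e-04). Its level was 0.45, 0.54 and 0.45 after knock-down of HP1alpha, HP1beta and HP1gamma, so the TKO library was the highest within each platform. Sox17, a marker of endoderm, had a listed event only in the 2 TKO libraries, and its part in the Fn1 difference was not tested. The Prn/Prnp exon had 57 and 15 reads in the TKO triple knock-down, against 3 and 29 in the WT triple knock-down, and levels of 0.16 (0.12 to 0.22) and 0.01 (0.00 to 0.02) (adjusted exact p = 6.28e-09). The 3 single knock-downs of WT each had 0.01 for Prn/Prnp, with 3 or 4 inclusion reads.

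The read test alone was passed by 10 long events under the triple knock-down (2.42%, against 0.738% of all exons), 3 with higher and 7 with lower odds of inclusion in TKO. The 7 lower ones were Ndufv3, Prrc2b, Meg3, Srsf7, Snrnp70 and both overlapping Eef1d events, and none reached a level difference of 0.1. Ndufv3 had 953 and 981 reads in the TKO triple knock-down, against 907 and 343 in the WT triple knock-down (levels 0.05 and 0.13, adjusted exact p = 7.82e-36). Prrc2b had 48 and 63 reads in the TKO triple knock-down, against 180 and 66 in the WT triple knock-down (levels 0.03 and 0.11, adjusted exact p = 3.83e-05).

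A set of 4 loci passed the read test on both platforms and in the same direction, 3 with lower and 1 with higher odds in TKO. They hold 5 of the 408 long events tested in both comparisons (1.23%), against 19 of all 4344 exons (0.437%), which also had the same direction in both. The difference between these shares was not tested. They were Ndufv3 (log2 odds ratio -1.04 untransfected and -1.44 under the triple knock-down), Prrc2b (-1.29 and -1.83), Eef1d (-1.55 and -1.12 for the exon of 1140 nucleotides) and Fn1 (0.87 and 1.05). The untransfected and the knock-down libraries have no library in common. Of the 19 long events called between untransfected TKO and WT, 11 could be tested under the triple knock-down, 6 had an odds ratio on the same side of 1, and 0 were called.

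Zelen's exact test, which asks whether 2 odds ratios are equal, was used to see whether the TKO difference itself depended on the knock-down. Of 408 long events tested, 15 had an adjusted p of at most 0.05 (3.68%), against 117 of all 4344 exons (2.69%). Snrnp70, the U1 snRNP 70 kDa protein (1360 nucleotides, chr7:45381825-45383184), had 1640 inclusion and 1108 skipping reads in TKO and 1576 and 1103 in WT, but 889 and 154 in the TKO triple knock-down and 991 and 80 in the WT triple knock-down (adjusted exact p = 3.60e-05). Srsf7, an SR protein (460 nucleotides, chr17:80204622-80205081), had 767 and 932 reads in TKO and 998 and 1314 in WT, but 418 and 491 in the TKO triple knock-down and 510 and 313 in the WT triple knock-down (adjusted exact p = 1.46e-07). For both genes TKO and WT were alike without transfection, at 0.38 and 0.36 for Snrnp70 and at 0.23 and 0.24 for Srsf7, and the TKO library had the lower odds under the triple knock-down.

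Trp53, the tumour suppressor p53 (412 nucleotides, chr11:69581054-69581465), had 313 and 242 reads in TKO against 113 and 283 in WT, and 41 and 57 in the TKO triple knock-down against 48 and 35 in the WT triple knock-down (adjusted exact p = 1.23e-05). Its TKO level was above WT without transfection, 0.15 (0.13 to 0.16) against 0.07 (0.05 to 0.08), and under the triple knock-down TKO had 0.05 (0.03 to 0.07) and WT had 0.08 (0.05 to 0.11), whose intervals overlap. The siRNA doses of the triple knock-down differed between TKO and WT, and the dependence cannot be told apart from dose, platform or transfection.

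**Figure D4:**
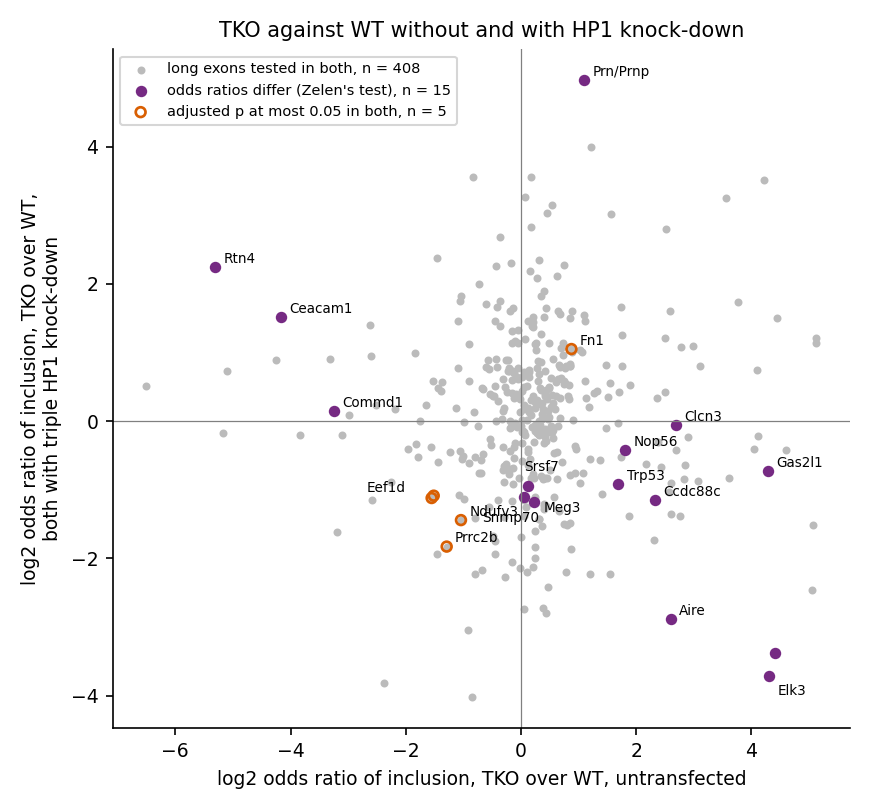
log2 odds ratio of inclusion in TKO over WT with both under the triple HP1 knock-down (vertical axis) against the same ratio in untransfected cells (horizontal axis), 1 point per long event tested in both (408). Purple points are the 15 whose 2 odds ratios differ by Zelen's test, and orange rings mark the 5 events, in 4 loci, with an adjusted p of at most 0.05 in both comparisons.

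Among the knock-downs in WT cells no long exon was called. The HP1alpha knock-down was set against HP1beta and HP1gamma together (454 long events tested), HP1beta against HP1alpha and HP1gamma (454), HP1gamma against HP1alpha and HP1beta (454), and the triple knock-down against the 3 single ones (426). Fisher's exact test gave 0 long calls in each, beside 17, 16, 19 and 16 long events at an unadjusted p under 0.05, and the test with a length-matched odds ratio also gave 0. Over all exons the shares called were 0%, 0.019%, 0% and 0.0435%. The nearest exon was that of Zmym3 (295 nucleotides), a zinc finger protein of histone deacetylase complexes, with 111 inclusion and 21 skipping reads in the HP1beta knock-down against 287 and 12 in the other 2 single knock-downs together, and a level of 0.36 against a mean of 0.68 (adjusted exact p = 0.0525). The read test alone was passed in the HP1gamma knock-down by 2 long events (0.441%), against 3 of all 5250 exons (0.0571%). They were those of Meg3 and Srsf7 (adjusted exact p = 0.0149 for each), with level differences of -0.01 as rounded.

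Levels of long exons were further apart between TKO and WT under the triple knock-down than without transfection. Over the 407 events with 20 distinguishing reads in all libraries, the median absolute difference was 0.03 under the triple knock-down and 0.01 without transfection. A difference of 0.1 or more was found in 19.9% of long and 11.4% of shorter exons under the triple knock-down, and in 10.8% and 13.1% without transfection. Over the 3 single knock-downs, where a range covers 1 library more, the median range was 0.04, and it was 0.1 or more in 24.6% of long and 12.7% of shorter exons. None of these shares was tested. The knock-down libraries were shallower, and the median width of the deposited interval of long exons was 0.16 to 0.21 there, against 0.06 in TKO and 0.07 in WT.

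Exons of the splicing machinery were listed as a group. Of 40 SR proteins, SR-related proteins and their kinases, 9 had a long skipped exon, those of Pnisr, Son, Srrm1, Srrm2, Srsf3, Srsf6, Srsf7, Tra2a and Tra2b, all listed in all 7 libraries. Between TKO and WT 0 of the 9 were called and 1 passed the read test, and the median absolute level difference was 0.02, as over all exons. Events with no skipping read in either library could not be called, in this list or those below. Among them here were Son, Srsf3 and Tra2b. Tra2a, a partner of Tra2b (306 nucleotides), had levels of 0.74 in TKO and 0.68 in WT, and 0.13 in the TKO triple knock-down, 0.10 in the WT triple knock-down, and 0.10, 0.10 and 0.08 with HP1alpha, HP1beta and HP1gamma knock-down. Srsf7 had 0.23 in TKO and 0.24 in WT and 0.04 to 0.07 in the knock-downs. Srsf6 (268 nucleotides) had 0.11 in TKO and 0.08 in WT and 0.08 to 0.10 in the knock-downs, and Srsf3 (456 nucleotides), with no skipping read in any library, had 0.16 in TKO and 0.14 in WT and 0.19 to 0.30 in the knock-downs. Within a platform, none of Tra2a, Srsf7 and Srsf6 differed between TKO and WT by the rule for a call, and Srsf3 could not be called.

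**Figure D5:**
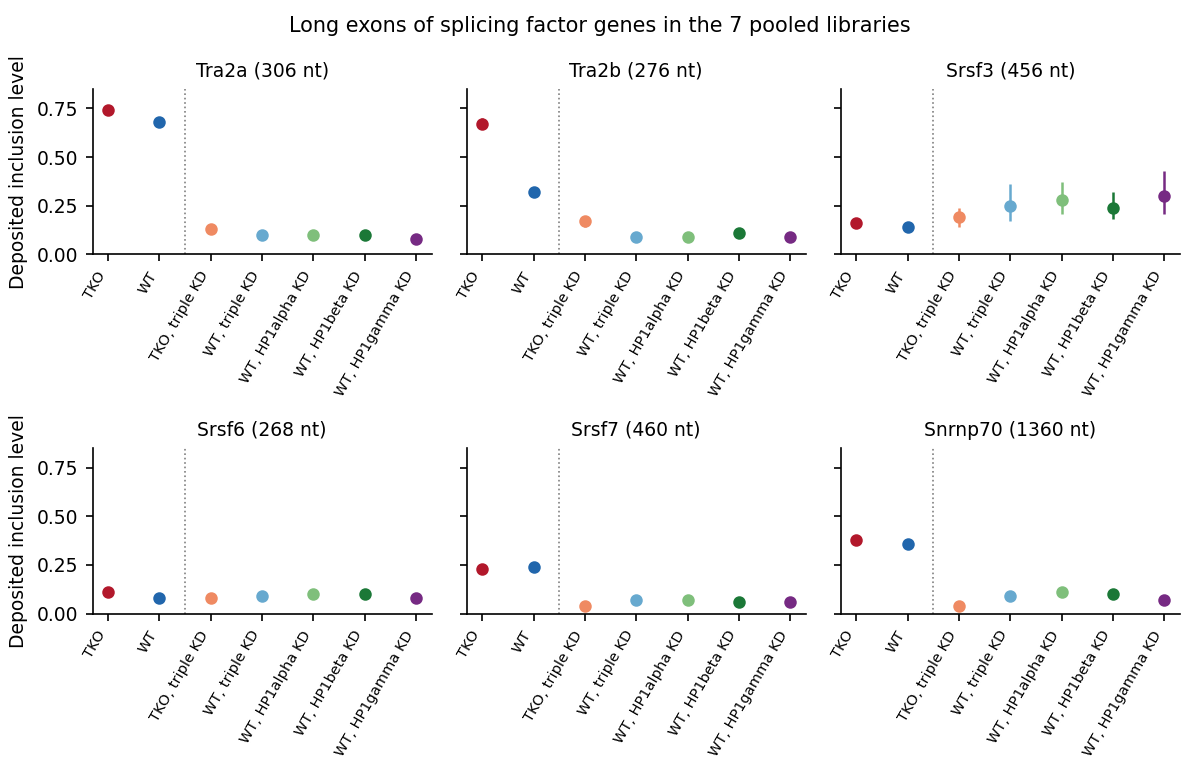
Deposited inclusion level (vertical axis) of the long exons of 6 splicing factor genes in the 7 pooled libraries (horizontal axis), with bars for the deposited interval where wider than the point. The dotted line separates the single-end TKO and WT libraries from the 5 paired-end knock-down libraries. Tra2a is at 0.74 and 0.68 left of the line and at 0.08 to 0.13 right of it, and Srsf6 lies at 0.08 to 0.11 in all 7.

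Of 79 hnRNP genes and other splicing regulators 10 had a long exon, and 0 of their 11 events were called between TKO and WT. Hnrnpa1 (1711 nucleotides) had 0.99 in TKO and 0.99 in WT, from 33705 inclusion and 184 skipping reads in TKO and 38771 and 173 in WT. Rbm39 (274 nucleotides) had 0.16 in TKO and 0.13 in WT, from 296 and 1224 reads in TKO and 284 and 1546 in WT, and at most 1 skipping read in each knock-down. A second deposited event with the same Rbm39 exon and another upstream neighbour ran the other way, 0.36 in TKO and 0.43 in WT, from 314 and 470 reads in TKO and 304 and 338 in WT (adjusted exact p = 0.0648, against 0.0344 for the first event). Rbm3, a cold-inducible RNA-binding protein (271 nucleotides), had 0.12 in TKO and 0.19 in WT and 0.75 to 0.86 in the knock-downs. For Rbm39 and Rbm3 the knock-down levels rest on 25 to 89 distinguishing reads. Of 121 core spliceosome and RNA helicase genes 4 had a long exon, Dhx32, Dhx57, Snrnp70 and Upf2, and 0 were called in either comparison of TKO with WT.

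Of 225 chromatin and DNA methylation regulators 20 had a long exon, with 26 events tested between TKO and WT, of which 0 were higher and 1, Arid4b, was lower. Dot1l, the histone H3 lysine 79 methyltransferase (631 nucleotides), had 421 inclusion and 76 skipping reads in TKO and 882 and 99 in WT, with levels of 0.42 and 0.58 (adjusted exact p = 0.0527). Its levels were 0.41 in the TKO triple knock-down and 0.54 in the WT triple knock-down. A second deposited event with the same Dot1l exon had 0.54 in TKO and 0.86 in WT, with no skipping read in either library. No HP1 gene had a long skipped exon. Dnmt3l, the catalytically inactive cofactor of the de novo methyltransferases (339 nucleotides), was the only Dnmt gene with one, at 0.21 in TKO and 0.15 in WT and 0.32 to 0.47 in the knock-downs, from at most 1 skipping read in any library.

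Of 237 genes of DNA repair, replication, cell cycle and mitosis 15 had a long exon, and 0 of 15 events were called between TKO and WT, and 1 of 12, Depdc1a, under the triple knock-down. Of 143 genes of cytoskeleton, adhesion and polarity 22 had one. Between TKO and WT 2 of their 23 events were lower, both of Mapt, and 0 were higher. Under the triple knock-down 1 of 14, Fn1, was higher. Over all exons, 4.57% were called between TKO and WT and 0.469% under the triple knock-down. Between TKO and WT the read test alone was passed by 5 of these 23 events and by 4 of the 26 of chromatin regulators. It was passed by 1 of 11 in the hnRNP list, 0 of 4 in the spliceosome list and 1 of 15 in the repair list. The share over all exons was 8.94%, and no list was tested against it. Plec, the cytoskeletal linker plectin (3381 nucleotides), was not called but had a wide range, with 0.27 in the TKO triple knock-down and 0.53 in the WT triple knock-down, and 0.60, 0.42 and 0.32 with HP1alpha, HP1beta and HP1gamma knock-down. It had at most 5 skipping reads in each of these libraries. The untransfected levels of Plec were 0.73 in TKO and 0.81 in WT. Its distinguishing reads ran the other way, 3506 inclusion and 0 skipping in TKO against 5836 and 27 in WT, with a higher odds of inclusion in TKO (log2 odds ratio 5.05, adjusted exact p = 1.94e-04).

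The median level of exons just inside the bound of 250 nucleotides was lower than that just outside it, which was not tested. The 56 events from 250 to under 260 nucleotides had a median level of 0.86 in TKO and 0.83 in WT, and the 85 events from 240 to under 250 nucleotides had 0.89 and 0.89. In the knock-downs the medians inside and outside the bound were 0.70 and 0.74 for the TKO triple knock-down, 0.74 and 0.80 for the WT triple knock-down, 0.61 and 0.79 for HP1alpha, 0.57 and 0.76 for HP1beta, and 0.68 and 0.80 for HP1gamma. Of distinct exons above a level of 0.8, 44.3% had a length that is a multiple of 3 in TKO, against 46.2% of those at 0.2 to 0.8 and 44.6% of those under 0.2. In WT the shares were 45.1%, 47.2% and 41.5%. In shorter exons they were 43.8%, 53% and 50.1% in TKO and 43.6%, 53.5% and 49.8% in WT. No test was made of these shares.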

How the data were processed

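The authors sequenced RNA of 14 samples in 7 groups, pooled the 2 replicates of each group and deposited 1 splicing summary per group. Per the file headers these are MISO summaries of skipped exon events. TopHat2, Bowtie2 and mm10 are named in the submitters' processing notes, without settings. Neither label nor header states the coverage of the deposited interval or the MISO version. Inclusion was deposited as a fraction (0 to 1), and per the file headers each event carries a count of reads per class. Bisulfite (2 samples) and MNase (6 samples) data were not used here.

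Events were joined by coordinates and named by the gene whose span in the GRCm38.p6 RefSeq table holds the event. Genes were assigned without strand, so overlapping genes cannot be told apart by name. Per exon, inclusion and skipping reads were tested as stated in the report, in 6 comparisons within a platform, with NumPy 2.4.6, SciPy 1.17.1 and pandas 2.3.3 under Python 3.11.15. Odds ratios had 0.5 added to each read class. In comparisons against several libraries their reads were summed and their levels averaged. The tests were run on simulated data with known changes beforehand. Reads are not independent molecules, so p-values cover counting error only.

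The members and the 6 gene lists were chosen with earlier results of these data known. Exons were named by a rule, 1 event per exon: all called exons (up to 12 per direction for TKO against WT), the most read at a middle level, the 10 lowest, the 8 longest, up to 6 per gene list by range within a platform, up to 5 per direction by Zelen's test, and HP1 and Dnmt genes. The 3 start windows, Eef1d, Wiz, Tra2b as an untested case, Zmym3, Prn/Prnp in untransfected cells and second events of named exons were chosen after their values were seen. Alternatives were other read minimums, level differences, length bounds and null odds ratios, separated intervals, levels from reads and single references.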

Additional observations from a re-analysis of the deposited data

Results flagged for a closer look

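For 15 long events the TKO difference in untransfected cells and under the triple HP1 knock-down differed by Zelen's exact test. The values given are the log2 odds ratio of TKO over WT under the triple knock-down minus that in untransfected cells. The 4 events that fell furthest below the untransfected ratio were those of Elk3 (-8.03 for the exon of 801 nucleotides and -7.77 for the overlapping exon of 344), Aire (-5.49) and Gas2l1 (-5.01). Then came Ccdc88c (-3.48), Clcn3 (-2.76), Trp53 (-2.61), Nop56 (-2.23), Meg3 (-1.40), Snrnp70 (-1.15) and Srsf7 (-1.05). The Nop56 value is that of its event with levels of 0.26 in TKO and 0.25 in WT. The better covered Nop56 event, with levels of 0.59 and 0.58, ran the other way and did not pass. Its log2 odds ratio was -2.19 in untransfected cells and 0.18 under the triple knock-down (unadjusted Zelen's exact p = 0.49). The ratio was higher under the triple knock-down for Commd1 (3.39), Prn/Prnp (3.87), Ceacam1 (5.69) and Rtn4 (7.55). Elk3, Aire, Ceacam1 and Rtn4 had no skipping read in at least 1 of the 4 libraries, so the size of their ratios depends on the 0.5 added to each class. Elk3 had 358 inclusion and 0 skipping reads in TKO, 740 and 20 in WT, 226 and 5 in the TKO triple knock-down and 271 and 0 in the WT triple knock-down for the exon of 801 nucleotides. Rtn4, a reticulon gene (2361 nucleotides), had 13114 and 34 reads in TKO, 7529 and 0 in WT, 2556 and 1 in the TKO triple knock-down and 1261 and 3 in the WT triple knock-down. Commd1 (282 nucleotides) had 59 skipping reads beside 4197 inclusion reads in TKO and 4 beside 3008 in WT. Platform, transfection and siRNA dose moved with the knock-down, and their part in these differences was not tested.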

How the results depend on the processing

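No paired analysis was possible because replicates were pooled before deposit and the columns carry no replicate numbers. For TKO against WT, the 19 called long events (10 higher and 9 lower) became 34 (21 and 13) with a level difference of 0.05, 5 (2 and 3) with 0.2, 32 (22 and 10) with levels from distinguishing reads, 37 (21 and 16) with long exons from 200 nucleotides and 10 (5 and 5) from 350 nucleotides. Under the triple knock-down, the 3 (3 higher and 0 lower) became 6 (3 and 3) with a level difference of 0.05, 1 (1 and 0) with 0.2 and 5 (3 and 2) with levels from distinguishing reads. The HP1beta knock-down gained 1, Zmym3, with a minimum of 10 distinguishing reads (adjusted exact p = 0.0492) and 1, the same exon, with a minimum of 50 (adjusted exact p = 0.0383). The other alternatives run stayed within 1.5 times of these counts. With overlapping exons counted once, an alternative chosen after seeing the data, TKO against WT gave 18. Counts by Zelen's test were 16 and 13 with minimums of 10 and 50 reads, against 15. Median levels with 20 distinguishing reads in every library were 0.98 in TKO, 0.97 in WT, 0.80 in the TKO triple knock-down, 0.82 in the WT triple knock-down, and 0.84, 0.83 and 0.82 with HP1alpha, HP1beta and HP1gamma knock-down. From 350 nucleotides the median was 0.94 in TKO and 0.94 in WT. Of the alternatives run on single exons, only levels from distinguishing reads could change a direction, because the others keep the deposited difference. With levels from reads, all 19 events called between TKO and WT kept their direction. The 3 called under the triple knock-down kept theirs too. Depth limits the knock-downs, in which long events had median counts of 107.5 to 159 distinguishing reads.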
